A study of Mus musculus with 6 samples.

Results

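The endothelial cell genes described here are 35 named genes of the cells that line blood and lymph vessels, taken from the deposited count table of 16627 Ensembl genes. All 35 were in the table and all 35 passed the filter on low counts that left 16366 genes for testing. RNA came from iWAT, the inguinal white adipose tissue under the skin of the mouse groin, after 6 hours in the cold at 4 °C. The 3 Celf1 AKO libraries came from mice labelled as an adipocyte-specific Celf1 knockout on a Celf1 fl/fl background. The 3 Flox control libraries came from littermates of the fl/fl genotype, which had the same cold exposure. The study is about the part of Celf1 in the beiging of this fat; the protein binds RNA and acts on splicing and mRNA stability. The sources used here give neither the Cre line that made the knockout nor the age or sex of the mice, and every library was cold-exposed, so the comparison is of genotype within the cold. Since Celf1 was to be deleted in adipocytes, the endothelial genes are read in cells that were not the target of the deletion, in RNA of the whole tissue.

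Blood vessels of fat are lined by endothelial cells, which sense vascular endothelial growth factors and angiopoietins through receptor tyrosine kinases, seal the vessel wall with cadherin and claudin junctions, and hold their identity through ETS and SOX transcription factors. In adipose capillaries they also present lipoprotein lipase to circulating triglyceride and pass fatty acids to adipocytes, and cold exposure is known to stimulate vessel growth in fat. Lymphatic vessels share many of these genes and add markers of their own.

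The libraries held 54835348 to 64979443 counts, so that 1 CPM (the count scaled to library size, after TMM normalization) stood for 54.95 to 67.75 counts. Celf1 was at 52.5, 49.8 and 63.0 CPM in replicates 1, 2 and 3 of Celf1 AKO, against 126, 114 and 144 CPM in replicates 1, 2 and 3 of Flox control. All 3 knockout libraries lay below all 3 controls and averaged 43.1% of the control mean (log2 fold change -1.21, SE 0.14, adjusted p = 0.122 by the edgeR quasi-likelihood test, exact two-sided permutation p = 0.1, the smallest that 3 against 3 allows). Celf1 AKO replicate 3 stood apart from its group: across genes, its log2 CPM had correlations of 0.983 to 0.986 with Flox control libraries, higher than the 0.978 and 0.976 it had with Celf1 AKO replicates 1 and 2. Many results, though not all, are therefore given both with and without Celf1 AKO replicate 3. The tissue label was met by its markers, with 12 of 12 adipocyte markers in the table at a summed 31170 to 40330 CPM in Celf1 AKO and 34620 to 37550 CPM in Flox control. The endothelial label was met as well: Pecam1, Cdh5 and Kdr, which define endothelium, were each at 93.0 CPM or more in every library.

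Endothelial genes lay higher in Celf1 AKO fat as a group, but no single gene passed the test over all genes. Of the 35, 31 (88.6%) had a log2 fold change above 0, where 47.5% of all tested genes did, and their median was 0.54 where that of all tested genes was -0.02. The edgeR quasi-likelihood test with Benjamini-Hochberg adjustment called 0 of the 35, with adjusted p-values of 0.227 to 0.978. It called 0.0122% of all tested genes higher and 0.0% lower in Celf1 AKO. At an unadjusted p under 0.05, 17 members were higher and 0 lower, where 6.75% of all tested genes were higher and 6.17% lower. In 15 members all 3 Celf1 AKO libraries lay above all 3 Flox control libraries and in 0 members below them, against 7.81% and 9.51% of all tested genes. DESeq2 on the same libraries called 8 members, all higher in Celf1 AKO (2.08% of all tested genes were called higher and 0.941% lower): Robo4, S1pr1, Sox17, Rasip1, Cldn5, Kdr, Flt4 and Esam. The members were chosen with earlier results of these data known, and genes read in the same 6 libraries are not separate replicates. The shares above therefore describe these libraries and are no test over the list. In bulk tissue, more endothelial cells and more RNA of these genes per cell cannot be told apart.

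**Figure D1:**
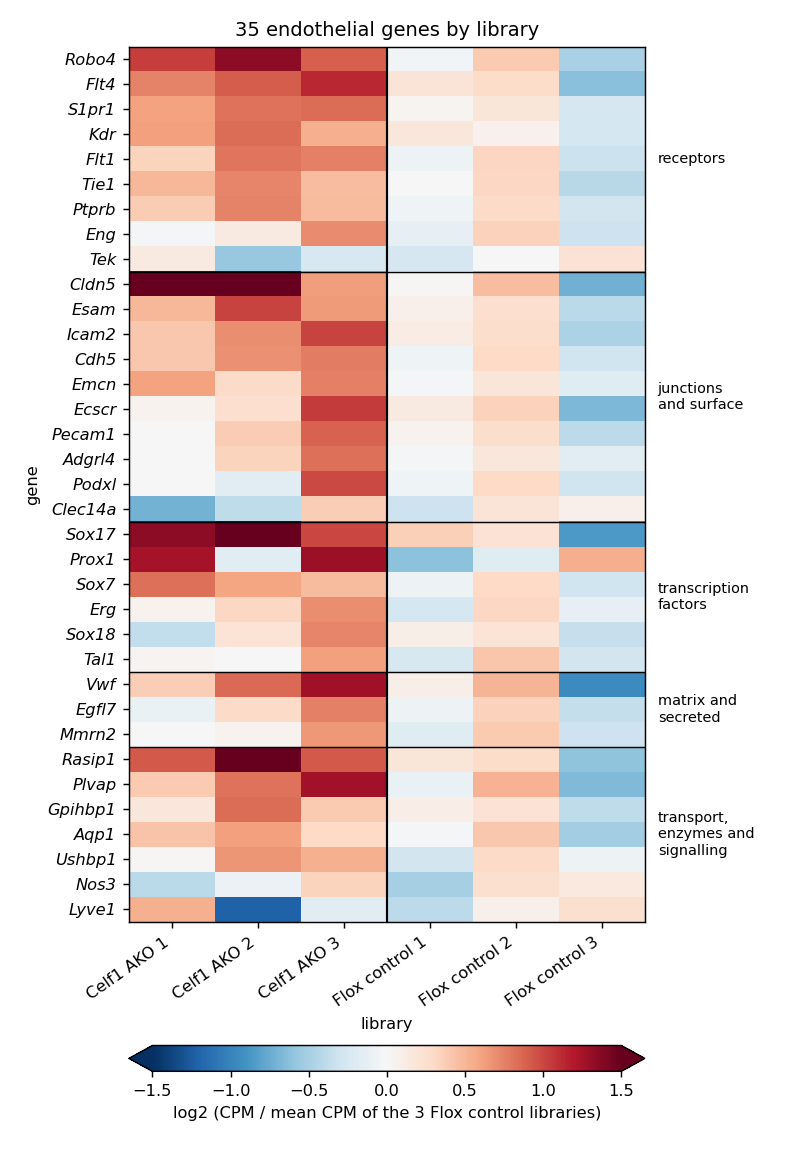
Log2 ratio of each gene's CPM to the mean of the 3 Flox control libraries, for 35 endothelial genes (rows, by role) in 6 libraries (columns, Celf1 AKO left of the black line, Flox control right of it). Red cells, above the control mean, fill most of the Celf1 AKO side, with Robo4, Cldn5, Sox17 and Rasip1 the darkest across it, and Flox control 3 is the palest or bluest control column in most rows.

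The difference was uneven among the libraries. Celf1 AKO replicate 3 was the highest of the 6 libraries for 20 members, Celf1 AKO replicate 2 for 12 and Celf1 AKO replicate 1 for 2, while Flox control replicate 3 was the lowest for 27. The mean log2 CPM of the 35 genes was 5.50, 5.64 and 5.83 in Celf1 AKO and 5.07, 5.40 and 4.81 in Flox control. The groups did not overlap, but Flox control replicate 2 came close to Celf1 AKO replicate 1. Without Flox control replicate 3 the members' median log2 fold change was 0.40, with 33 above 0, 12 higher and 0 lower at an unadjusted p under 0.05 (3.6% and 2.64% of all tested genes) and 0 called by edgeR. Without Celf1 AKO replicate 3 it was 0.54, with 29 above 0, 14 higher and 0 lower at an unadjusted p under 0.05 (10.7% and 12.8% of all tested genes), and edgeR called 1 member higher, Cldn5, and 0 lower (1.43% and 1.76% of all tested genes).

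**Figure D2:**
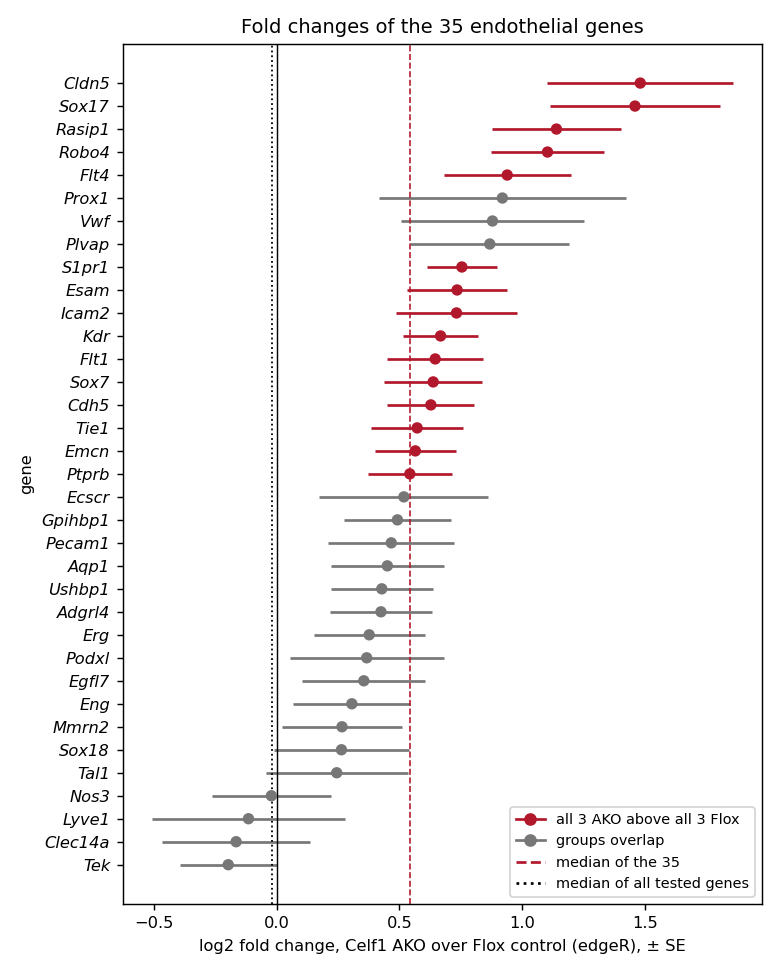
Log2 fold change of Celf1 AKO over Flox control for the 35 endothelial genes, from edgeR on 3 libraries each, with bars of ± 1 standard error. Red genes are the 15 in which all 3 Celf1 AKO libraries exceeded all 3 Flox control libraries, grey genes overlap between the groups, and the dashed and dotted lines mark the median of the 35 genes (0.54) and of all tested genes (-0.02).

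Receptors of vascular growth and stability signals made up 9 of the members. Of these 8 had a log2 fold change above 0, and 7 were higher in all 3 Celf1 AKO libraries. Over all tested genes the shares were 47.5% and 7.81%. S1pr1, the receptor by which the lipid sphingosine 1-phosphate tightens the endothelial barrier, had the smallest p of all members. It was at 152, 177 and 179 CPM in replicates 1, 2 and 3 of Celf1 AKO, against 103, 114 and 84.3 CPM in replicates 1, 2 and 3 of Flox control (log2 fold change 0.75, SE 0.14, edgeR adjusted p = 0.227). The knockout libraries lay close together and clear of the highest control. Robo4, a Roundabout receptor nearly restricted to endothelium that stabilizes vessels, was at 76.4, 94.0 and 69.2 CPM in Celf1 AKO, against 36.1, 48.9 and 26.5 CPM in Flox control (log2 fold change 1.10, SE 0.23, edgeR adjusted p = 0.227). Its lowest knockout library, replicate 3, was still well above its highest control.

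The receptors of vascular endothelial growth factors all lay higher in each Celf1 AKO library than in each control. Kdr, the main signalling receptor for VEGF-A, was at 213, 247 and 200.0 CPM in Celf1 AKO, against 155, 145 and 115 CPM in Flox control (log2 fold change 0.67, SE 0.15, edgeR adjusted p = 0.238). For Flt1, which binds VEGF-A tightly and can act as a decoy, Celf1 AKO held 102, 141 and 136 CPM and Flox control 76.8, 101 and 64.8 CPM. The gap here was narrow, with Celf1 AKO replicate 1 only just above Flox control replicate 2. Flt4, the receptor of VEGF-C and VEGF-D that is strongest on lymphatic vessels, was scarce, at 12.1, 13.5 and 15.8 CPM in Celf1 AKO, against 8.18, 8.72 and 4.64 CPM in Flox control. The log2 fold changes of Flt1 and Flt4 were 0.65 (SE 0.19) and 0.94 (SE 0.26), with edgeR adjusted p-values of 0.293 and 0.270.

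In the angiopoietin system the receptor and its partners had fold changes of opposite sign. Tek, the angiopoietin receptor, was at 72.0, 44.5 and 55.5 CPM in Celf1 AKO, against 55.3, 65.4 and 76.4 CPM in Flox control, with overlapping groups and a log2 fold change of -0.20 (SE 0.20, edgeR adjusted p = 0.701). It was the lowest fold change of the 35, and was -0.08 without Flox control replicate 3, where Tek was highest. Tie1, the orphan receptor that pairs with Tek, averaged 57.8 ± 5.95 CPM in Celf1 AKO, against 38.9 ± 9.57 CPM in Flox control (SD, n = 3 each). Ptprb, the phosphatase that restrains Tek, averaged 142 ± 19.2 CPM in Celf1 AKO and 97.4 ± 19.5 in Flox control. Both were higher in all 3 Celf1 AKO libraries, with log2 fold changes of 0.57 (SE 0.19) and 0.54 (SE 0.17) and edgeR adjusted p-values of 0.305 and 0.301. Eng, a co-receptor for TGF-β and BMP ligands, overlapped between the groups at 116 ± 32.9 CPM in Celf1 AKO, against 93.9 ± 22.8 CPM in Flox control. Its log2 fold change of 0.31 was 0.05 without Celf1 AKO replicate 3.

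Junction and surface proteins gave 10 members, 9 of them with a log2 fold change above 0 and 5 higher in all 3 Celf1 AKO libraries. Over all tested genes the shares were 47.5% and 7.81%. The largest fold change of all 35 belonged to Cldn5 (ENSMUSG00000041378; chromosome 16, 18776847 to 18778262, plus strand, GRCm38), the claudin of endothelial tight junctions. It was at 183, 187 and 83.2 CPM in replicates 1, 2 and 3 of Celf1 AKO, against 54.9, 74.3 and 32.9 CPM in replicates 1, 2 and 3 of Flox control. Celf1 AKO replicates 1 and 2 lay far above every control, whereas replicate 3 was near Flox control replicate 2. This gave Cldn5 1.48 (SE 0.38) as its log2 fold change, at an edgeR adjusted p of 0.256, and of 0.0402 without Celf1 AKO replicate 3, where the log2 fold change was 1.77.

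Adherens and adhesion genes had smaller fold changes. Cdh5, the VE-cadherin that joins endothelial cells, was at 152, 184 and 195 CPM in Celf1 AKO, against 109, 141 and 93.0 CPM in Flox control (log2 fold change 0.63, SE 0.18, edgeR adjusted p = 0.280). Esam, an adhesion molecule of endothelial junctions that platelets also carry, was at 98.0, 141 and 108 CPM in Celf1 AKO, against 73.4, 82.5 and 52.5 CPM in Flox control (log2 fold change 0.73, SE 0.20, edgeR adjusted p = 0.270). Emcn, a mucin-like surface protein of capillaries and veins, was at 25.7, 20.6 and 28.5 CPM in Celf1 AKO, against 16.6, 19.2 and 14.8 CPM in Flox control (log2 fold change 0.56, SE 0.16, edgeR adjusted p = 0.289). In each of these 3 genes the lowest knockout library exceeded the highest control. Pecam1, the general endothelial adhesion molecule that leukocytes and platelets also make, was at 212, 275 and 393 CPM in Celf1 AKO, against 220.5, 255 and 161 CPM in Flox control. Here the groups overlapped, since Celf1 AKO replicate 1 was below Flox control replicates 1 and 2. The log2 fold change was 0.47 (SE 0.26, edgeR adjusted p = 0.482), or 0.20 without Celf1 AKO replicate 3.

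Among the remaining surface genes, Icam2, a ligand of leukocyte integrins, was higher in all 3 Celf1 AKO libraries at 12.7 ± 2.68 CPM, against 7.65 ± 1.92 CPM in Flox control (SD, n = 3 each). Its log2 fold change was 0.73 (SE 0.25), or 0.56 without Celf1 AKO replicate 3. Adgrl4, an adhesion G protein-coupled receptor, averaged 99.5 ± 28.8 CPM in Celf1 AKO and 74.2 ± 8.89 in Flox control. Ecscr, an endothelial surface protein, averaged 12.01 ± 4.65 CPM in Celf1 AKO and 8.39 ± 2.81 in Flox control. Podxl, a sialomucin that kidney podocytes also make, averaged 83.0 ± 39.1 CPM in Celf1 AKO and 64.4 ± 13.6 in Flox control. These 3 overlapped between the groups and were highest in Celf1 AKO replicate 3. Without that library their log2 fold changes were 0.17, 0.15 and -0.09, against 0.42, 0.52 and 0.37 with it. Clec14a, a C-type lectin-like receptor that binds the matrix protein Mmrn2, was lower in its mean, at 6.41 ± 2.55 CPM in Celf1 AKO, against 7.19 ± 1.26 CPM in Flox control (log2 fold change -0.17, SE 0.30, or -0.53 without Celf1 AKO replicate 3).

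Transcription factors of endothelial identity gave 6 members, all with a log2 fold change above 0 but only Sox17 and Sox7 without overlap. Of all tested genes, 47.5% were above 0 and 7.81% were higher in all 3 Celf1 AKO libraries. Sox17, which specifies arterial endothelium, was at 97.4, 143 and 77.1 CPM in replicates 1, 2 and 3 of Celf1 AKO, against 49.4, 44.9 and 21.1 CPM in replicates 1, 2 and 3 of Flox control (log2 fold change 1.46, SE 0.35, edgeR adjusted p = 0.251). As with Cldn5, replicate 3 was the lowest of the knockout libraries. Sox7, of the same SoxF subfamily, was at 15.2, 13.0 and 11.96 CPM in Celf1 AKO, against 8.20, 10.6 and 7.01 CPM in Flox control (log2 fold change 0.64, SE 0.20, edgeR adjusted p = 0.301). Sox18, the remaining SoxF gene and an inducer of lymphatic fate, averaged 36.5 ± 13.6 CPM in Celf1 AKO, against 30.4 ± 5.85 CPM in Flox control (SD, n = 3 each). Its fold change was small at 0.26 on the log2 scale (SE 0.28) and was -0.05 without Celf1 AKO replicate 3. Erg, the ETS factor that maintains endothelial identity, averaged 14.3 ± 3.26 CPM in Celf1 AKO and 11.01 ± 2.38 in Flox control. Tal1, a factor of blood and endothelial development, averaged 4.11 ± 1.03 CPM in Celf1 AKO and 3.47 ± 0.995 in Flox control. Both overlapped between the groups, and their log2 fold changes of 0.38 and 0.24 were 0.18 and 0.02 without Celf1 AKO replicate 3.

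Secreted and matrix proteins gave 3 members, all above 0 and all overlapping. The shares of all tested genes were 47.5% above 0 and 7.81% higher in all 3 Celf1 AKO libraries. Vwf, the clotting factor stored in endothelial granules and in platelets, was at 33.9, 47.4 and 63.6 CPM in Celf1 AKO, against 27.9, 37.4 and 13.5 CPM in Flox control (log2 fold change 0.88, SE 0.37, edgeR adjusted p = 0.382). Flox control replicate 3 was by far the lowest and Celf1 AKO replicate 3 the highest. Without Flox control replicate 3 the log2 fold change was 0.56, and without Celf1 AKO replicate 3 it was 0.63. Mmrn2, a multimerin of the vessel matrix, averaged 30.1 ± 7.96 CPM in Celf1 AKO, against 25.1 ± 6.91 CPM in Flox control (SD, n = 3 each). Egfl7, a secreted protein that guides vessel tubes, averaged 49.2 ± 14.6 CPM in Celf1 AKO and 38.5 ± 9.54 in Flox control. Without Celf1 AKO replicate 3 their log2 fold changes were 0.02 and 0.10, against 0.27 and 0.35 with it. Exons of Egfl7 overlap those of Agpat2 on the opposite strand, a lipid synthesis gene at a mean of 1211 CPM over all libraries, so without a known strand setting the Egfl7 value is uncertain. Eng, Nos3 and Rasip1 also share exon positions with genes of the table, but these were at 0.179 to 8.43 CPM.

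Transport, enzyme and signalling genes gave 7 members, 5 of them with a log2 fold change above 0, and Rasip1 alone did not overlap. Of all tested genes, 47.5% were above 0 and 7.81% were higher in all 3 Celf1 AKO libraries. Rasip1, a Ras-interacting protein needed for vessel lumens to form, was at 61.1, 91.7 and 61.4 CPM in Celf1 AKO, against 36.6, 39.3 and 21.4 CPM in Flox control (log2 fold change 1.14, SE 0.26, edgeR adjusted p = 0.246). Gpihbp1, which carries lipoprotein lipase to the capillary lumen, was at 137, 216 and 159 CPM in Celf1 AKO, against 130.3, 140.5 and 92.8 CPM in Flox control (log2 fold change 0.49, SE 0.22, edgeR adjusted p = 0.397). Celf1 AKO replicate 1 lay below Flox control replicate 2. Plvap, which forms the diaphragms of fenestrae and caveolae, was at 50.7, 67.9 and 92.7 CPM in Celf1 AKO, against 35.9, 55.5 and 24.4 CPM in Flox control, again with overlap (log2 fold change 0.87, SE 0.32, edgeR adjusted p = 0.342). Leaving out either Celf1 AKO replicate 3 or Flox control replicate 3 gave a log2 fold change of 0.62. Nos3, the endothelial nitric oxide synthase, was at 45.8, 57.3 and 76.3 CPM in Celf1 AKO, against 42.9, 71.9 and 67.4 CPM in Flox control. Its groups had nearly the same mean (log2 fold change -0.02, SE 0.24), and its sign turned in several of the alternative fits. Aqp1, a water channel that red blood cells also carry, averaged 452 ± 49.6 CPM in Celf1 AKO, against 331 ± 104 CPM in Flox control. Ushbp1 averaged 36.3 ± 8.06 CPM in Celf1 AKO and 27.0 ± 5.41 in Flox control (SD, n = 3 each).

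Lyve1 and Prox1, the lymphatic markers among the members, had fold changes of opposite sign with wide errors. Flt4, described above as strongest on lymphatic vessels, was higher in all 3 Celf1 AKO libraries. Lyve1, a hyaluronan receptor of lymphatic endothelium that some tissue macrophages also carry, was at 236, 70.2 and 146 CPM in replicates 1, 2 and 3 of Celf1 AKO, against 125, 172 and 193 CPM in replicates 1, 2 and 3 of Flox control (log2 fold change -0.12, SE 0.39, edgeR adjusted p = 0.929). The knockout libraries held both the highest and the lowest value. The summed CPM of 8 macrophage markers was 1687, 585 and 1105 in Celf1 AKO and 1050, 1261 and 1490 in Flox control, and put the 6 libraries in the same order as Lyve1. The part of macrophages in the Lyve1 level was not tested. Prox1, the transcription factor that sets lymphatic identity, was barely detected at 0.874, 0.327 and 0.891 CPM in Celf1 AKO, against 0.240, 0.325 and 0.536 CPM in Flox control, which rests on 14 to 58 counts per library (log2 fold change 0.92, SE 0.50, edgeR adjusted p = 0.479).

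The RefSeq promoter table (GRCm38.p6) held 18 of the 35 genes, with 24 start sites, and the 250 bases upstream of each were searched on both strands for core words of factor families in endothelium. The ETS word AGGAAG was in 12 of 24 windows (50%), against 29.5% of all 32851 windows of the table. The ETS word CGGAAG, which differs in its first base only, was in 1 (4.17%, against 13.6%). Either ETS word was in 12 windows, of 11 genes (50%, against 39.2%). The SOX word ACAAT was in 6 (25%, against 27.7%) and the GATA word AGATAA in 2 (8.33%, against 9.99%). The upstream windows of 3 members free of annotated exons are shown, for the member of largest fold change (Cldn5, chr16:18776597-18776846, plus strand), a VEGF receptor that was higher without overlap (Flt1, chr5:147726012-147726261, minus strand) and the receptor of lowest fold change (Tek, chr4:94739039-94739288, plus strand), with ETS and SOX words on either strand in capitals.
Cldn5: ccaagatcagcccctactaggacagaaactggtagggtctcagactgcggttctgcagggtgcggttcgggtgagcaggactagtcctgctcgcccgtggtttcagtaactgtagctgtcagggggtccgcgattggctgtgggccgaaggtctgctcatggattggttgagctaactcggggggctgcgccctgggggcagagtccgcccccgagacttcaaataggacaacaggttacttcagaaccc
Flt1: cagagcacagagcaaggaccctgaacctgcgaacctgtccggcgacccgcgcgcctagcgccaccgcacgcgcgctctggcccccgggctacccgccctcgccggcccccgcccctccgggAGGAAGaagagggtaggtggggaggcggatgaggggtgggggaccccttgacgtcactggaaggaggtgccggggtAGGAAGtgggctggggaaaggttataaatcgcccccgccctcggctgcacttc
Tek: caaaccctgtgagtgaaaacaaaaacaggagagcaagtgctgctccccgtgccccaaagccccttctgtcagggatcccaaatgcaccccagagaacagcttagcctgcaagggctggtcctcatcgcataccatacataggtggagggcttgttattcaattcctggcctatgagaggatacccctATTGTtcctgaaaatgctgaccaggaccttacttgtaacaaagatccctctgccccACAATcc
Flt1 held 2 ETS words, Tek held 2 SOX words and Cldn5 held 0 of either. These are matches of letters in short windows and do not show binding.

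To compare the genes with each other, each gene's log2 CPM was set against the mean log2 CPM of all 35 genes in the same library. On this relative scale 30 of the 35 overlapped between the groups, 4 lay higher in all 3 Celf1 AKO libraries (Robo4, Flt4, S1pr1 and Cdh5) and 1 lower (Clec14a). Those 5 are 14.3% of the members, where 17.3% of all tested genes did not overlap in CPM in either direction, so the values below only describe these libraries. The relative log2 level of Robo4 was 0.76, 0.92 and 0.28 in Celf1 AKO and 0.11, 0.21 and -0.09 in Flox control. That of Clec14a was -3.36, -3.17 and -2.62 in Celf1 AKO and -2.54, -2.36 and -1.89 in Flox control. Cldn5, at 2.02, 1.91 and 0.55 in Celf1 AKO and 0.71, 0.81 and 0.23 in Flox control, lay above every control in Celf1 AKO replicates 1 and 2 but within the control range in replicate 3. Sox17 did the same, at 1.11, 1.52 and 0.44 in Celf1 AKO and 0.56, 0.09 and -0.41 in Flox control. Pecam1 was at 2.23, 2.47 and 2.79 in Celf1 AKO and 2.72, 2.59 and 2.52 in Flox control, with replicate 3 the highest of the knockout libraries and replicate 1 the lowest. Averaged by role, receptors lay 0.77 ± 0.12 above the mean of the 35 genes in Celf1 AKO and 0.73 ± 0.04 above it in Flox control (SD, n = 3 each). Transport, enzyme and signalling genes lay 0.99 ± 0.07 above it in Celf1 AKO and 1.10 ± 0.07 in Flox control. Role averages depended on single libraries. In the edgeR fit, the mean log2 fold change of transport, enzyme and signalling genes minus that of all members was -0.10, and -0.04 without Celf1 AKO replicate 3, while that of secreted and matrix proteins was -0.06 and -0.21. Single genes differed between the genotypes on the relative scale by -0.82 (Lyve1) to 0.94 (Sox17).

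**Figure D3:**
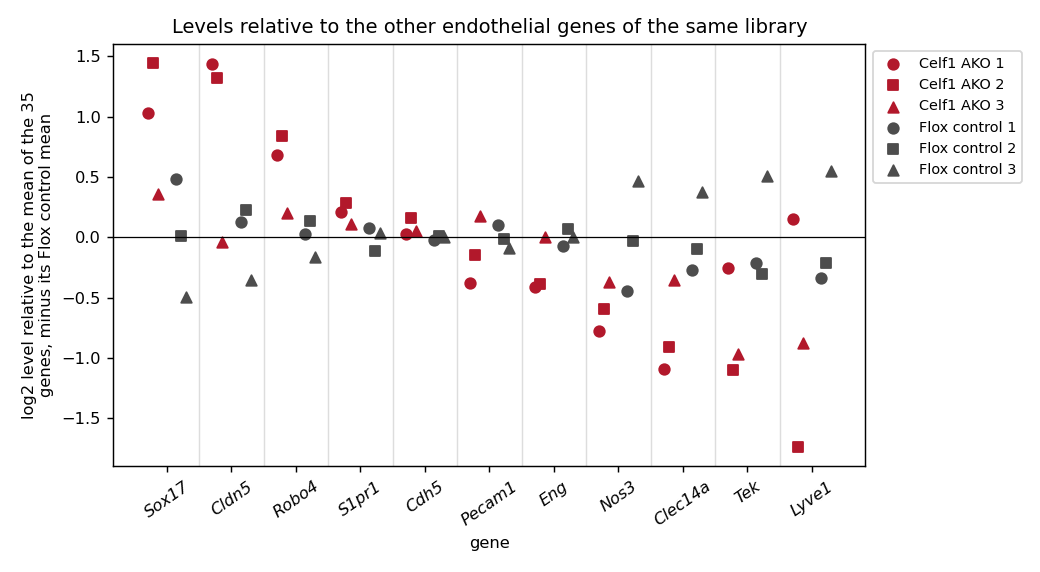
Relative log2 level of 11 endothelial genes (the gene's log2 CPM minus the mean log2 CPM of the 35 genes in that library), with each gene's Flox control mean set to 0, in 3 Celf1 AKO libraries (red, left of each pair) and 3 Flox control libraries (grey, right). Sox17 and Cldn5 are above 1 in Celf1 AKO 1 and 2 but not in Celf1 AKO 3, Robo4, S1pr1 and Cdh5 lie above every control in all 3 Celf1 AKO libraries, and Clec14a lies below every control, with Celf1 AKO 3 close to Flox control 1.

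Levels of different genes can be set side by side only per length, as in the deposited FPKM (fragments scaled by gene length and by library total). Averaged over all 6 libraries, Aqp1 was the highest member, at 171 ± 10.3 FPKM in Celf1 AKO and 126 ± 42.7 FPKM in Flox control (SD, n = 3 each). Gpihbp1 followed in that average, at 102 ± 20.4 FPKM in Celf1 AKO and 73.4 ± 15.3 in Flox control. Pecam1 came next at 85.3 ± 29.7 FPKM in Celf1 AKO and 61.8 ± 14.6 in Flox control. Cldn5 was at 105 ± 38.1 FPKM in Celf1 AKO and 38.4 ± 15.5 in Flox control, which put Cldn5 above Gpihbp1 and Pecam1 in the mean of Celf1 AKO and below both in Flox control, within wide errors. Lyve1 was at 58.0 ± 32.5 FPKM in Celf1 AKO and 63.2 ± 16.6 in Flox control, where its mean was above that of Pecam1. Esam was at 61.4 ± 9.31 FPKM in Celf1 AKO and 37.3 ± 8.56 in Flox control, and S1pr1 at 55.6 ± 5.63 FPKM in Celf1 AKO and 33.2 ± 5.35 in Flox control. From Gpihbp1 to S1pr1, neighbours in this order overlapped within 1 SD in Celf1 AKO. Kdr, at 36.8 ± 2.28 FPKM in Celf1 AKO and 23.4 ± 2.93 in Flox control, exceeded the other VEGF receptors. Flt1 was at 18.2 ± 2.99 FPKM in Celf1 AKO and 11.8 ± 3.01 in Flox control and Flt4 at 2.19 ± 0.370 FPKM in Celf1 AKO and 1.15 ± 0.350 in Flox control. At the low end were Tal1, at 0.978 ± 0.288 FPKM in Celf1 AKO and 0.831 ± 0.271 in Flox control, and Prox1, at 0.0889 ± 0.0432 FPKM in Celf1 AKO and 0.0470 ± 0.0211 in Flox control.

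Beyond the 35, 9 lists of related vascular genes held 94 distinct genes, of which 93 were tested. Of these, 61 had a log2 fold change above 0, with a median of 0.16, and edgeR called 0 (lowest adjusted p 0.227, in Cd93 and Sele). At an unadjusted p under 0.05, 17 were higher (18.3%, against 6.75% of all tested genes) and 1 lower (6.17% of all tested genes were lower). The lower gene was Aplnr, of the ligand and co-receptor list, with overlapping groups (log2 fold change -1.20, SE 0.50, edgeR adjusted p = 0.377). Among ligands and co-receptors of vessel growth, 8 of 13 were above 0 (median 0.06, or 0.13 without Celf1 AKO replicate 3). Vegfa, the VEGF ligand that fat cells secrete, was at 852, 923 and 493 CPM in Celf1 AKO, against 502, 312 and 339.6 CPM in Flox control (log2 fold change 0.97, SE 0.28, edgeR adjusted p = 0.286). Celf1 AKO replicate 3 was below Flox control replicate 1, so the groups overlapped, and edgeR gave an adjusted p of 0.0385 once that replicate was left out. Angpt2, the context-dependent ligand of Tek, averaged 10.4 ± 1.23 CPM in Celf1 AKO, against 6.04 ± 1.81 CPM in Flox control. Pgf, a ligand of Flt1, averaged 10.5 ± 1.65 CPM in Celf1 AKO and 4.95 ± 2.48 in Flox control (SD, n = 3 each). Both were higher in all 3 Celf1 AKO libraries, as the only 2 of the 13, where 7.81% of all tested genes were.

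Notch and arterial genes were above 0 in 10 of 14, with a median of 0.44 (0.28 without Celf1 AKO replicate 3 and 0.24 if Flox control replicate 3 was left out). Hes1, a Notch target, averaged 15.4 ± 4.98 CPM in Celf1 AKO, against 7.71 ± 1.13 CPM in Flox control. Notch1 averaged 37.3 ± 4.02 CPM in Celf1 AKO and 27.4 ± 4.54 in Flox control, and the ligand Jag2 averaged 26.1 ± 7.02 CPM in Celf1 AKO and 16.3 ± 5.26 in Flox control (SD, n = 3 each). The log2 fold change of Jag2 was 0.68, or 0.43 without Celf1 AKO replicate 3. Genes of BMP signalling and shear stress were above 0 in 9 of 10 (median 0.36, or 0.33 without Flox control replicate 3). Klf4 and Klf2, which laminar flow induces in endothelium, averaged 209.5 ± 23.0 and 132 ± 19.6 CPM in Celf1 AKO, against 148 ± 15.7 and 102 ± 10.5 CPM in Flox control. Smad6, an inhibitor of BMP signals, averaged 26.0 ± 5.06 CPM in Celf1 AKO, against 16.5 ± 2.23 CPM in Flox control. Of these genes, named for their small p, all but Jag2 were higher in all 3 Celf1 AKO libraries. Over the whole lists this held for 3 of 14 Notch and arterial genes and 3 of 10 BMP and shear stress genes. The share of all tested genes was 7.81%. Neither list had a gene past the edgeR test, with lowest adjusted p-values of 0.262 for the Notch list and 0.261 for the BMP list. Without Celf1 AKO replicate 3 edgeR called 2 genes of the Notch list, Hes1 higher (adjusted p = 0.0270) and Gja5, an arterial connexin named here for that call, lower (adjusted p = 0.0483, log2 fold change -1.41, against -0.18 with that library).

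The other related lists had medians of 0.01 to 0.28. Further junction and surface genes were above 0 in 8 of 14 (median 0.10, or 0.15 without Flox control replicate 3), led by Cd93, a C-type lectin-like receptor of endothelium, at 88.7, 84.8 and 117 CPM in Celf1 AKO, against 63.4, 63.5 and 55.7 CPM in Flox control. Mcam followed at 262 ± 29.6 CPM in Celf1 AKO and 193 ± 11.3 in Flox control. Further transcription factors were above 0 in 8 of 12 (median 0.13, and -0.07 without Celf1 AKO replicate 3 or 0.21 without Flox control replicate 3), with Ets2 at 69.1 ± 19.6 CPM in Celf1 AKO, against 36.4 ± 5.09 CPM in Flox control. Ets1 was at 64.5 ± 10.6 CPM in Celf1 AKO and 45.8 ± 4.98 in Flox control. Leaving out Celf1 AKO replicate 3 gave Ets2 an adjusted p of 0.0281 by edgeR. Capillary genes of fat were above 0 in 7 of 13 (median 0.14, and 0.03 without the same library or 0.04 without Flox control replicate 3), with Rbp7, a retinol-binding protein, at 163 ± 38.5 CPM in Celf1 AKO and 103 ± 24.6 in Flox control. In this list Fabp4 and Lpl averaged 3634 and 3448 FPKM over all 6 libraries. The adipocyte marker Adipoq averaged 2003 FPKM, and Aqp1, the highest of the 35 endothelial genes, 148.5 FPKM. The part of adipocyte RNA in this list was not tested. Venous and activation genes were above 0 in 5 of 7 (median 0.28, and -0.00 without Celf1 AKO replicate 3). In that list Sele, the E-selectin by which activated endothelium catches leukocytes, was low, at 1.24, 1.36 and 1.81 CPM in Celf1 AKO, against 0.583, 0.561 and 0.520 CPM in Flox control, but without overlap (log2 fold change 1.40, SE 0.29, edgeR adjusted p = 0.227). Lymphatic genes were above 0 in 4 of 6 (median 0.22, and 0.03 without Celf1 AKO replicate 3), with Reln at 6.59 ± 1.77 CPM in Celf1 AKO and 3.39 ± 0.487 in Flox control. Tip cell genes were above 0 in 4 of 7 (median 0.01, or 0.19 without Flox control replicate 3), with Nid2 at 28.5 ± 12.3 CPM in Celf1 AKO and 15.0 ± 2.70 in Flox control. Leaving out Celf1 AKO replicate 3 gave Nid2 an adjusted p of 0.0255 by edgeR. Proliferation genes were above 0 in 2 of 7, and their median of -0.11 was 0.08 without Celf1 AKO replicate 3 and -0.21 if Flox control replicate 3 was left out. Pcna, of smallest p in that list, was at 55.3 ± 2.02 CPM in Celf1 AKO and 49.5 ± 3.17 in Flox control (log2 fold change 0.16, SE 0.10), and Mki67 at 2.87 ± 0.599 CPM in Celf1 AKO, against 3.45 ± 0.521 CPM in Flox control (SD, n = 3 each).

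Markers of other cell types also varied between the libraries. The summed CPM of the 35 endothelial genes was 2981, 3413 and 3419 in Celf1 AKO and 2191, 2710 and 1833 in Flox control, without overlap. Schwann cell markers, all 8 above 0 (median 1.01) and all 8 without overlap, summed to 548, 792 and 742 CPM in Celf1 AKO and 424, 343 and 347 CPM in Flox control. Of all tested genes, 47.5% were above 0 and 7.81% were higher in all 3 Celf1 AKO libraries. Erythrocyte markers were above 0 in 7 of 7 (median 0.84, or 0.36 without Celf1 AKO replicate 3). Their sum was 598, 557 and 1272 CPM in Celf1 AKO and 589, 413 and 351 CPM in Flox control, highest in Celf1 AKO replicate 3, the library in which 20 endothelial genes were highest. Megakaryocyte and platelet markers were above 0 in 7 of 7 (median 0.49, or 0.12 without Celf1 AKO replicate 3), at a sum of 80.4, 31.7 and 80.4 CPM in Celf1 AKO and 56.4, 36.9 and 44.0 CPM in Flox control. Pf4, the highest gene of that list, was at 67.6, 24.85 and 57.4 CPM in Celf1 AKO, against 46.5, 29.4 and 37.4 CPM in Flox control. Ppbp, of smallest p in the list, was at 5.02, 1.88 and 10.03 CPM in Celf1 AKO, against 3.38, 1.52 and 1.255 CPM in Flox control. The part of blood cells in the endothelial values was not tested.

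Marker sums of the vessel wall, stroma, macrophages and adipocytes overlapped between the genotypes. Pericyte and smooth muscle markers were above 0 in 7 of 10 tested (median 0.27, 0.13 without Celf1 AKO replicate 3 and -0.01 if Flox control replicate 3 was left out), with sums of 706, 624 and 642 CPM in Celf1 AKO and 567, 703 and 445 CPM in Flox control. Abcc9, a channel subunit of pericytes, was higher in all 3 Celf1 AKO libraries at 48.0 ± 2.92 CPM, against 35.5 ± 3.16 CPM in Flox control (SD, n = 3 each). Macrophage markers were above 0 in 1 of 8 (median -0.10, or -0.21 without Celf1 AKO replicate 3). Preadipocyte and fibroblast markers were above 0 in 2 of 8, and their median of -0.11 was -0.03 without Celf1 AKO replicate 3 and 0.05 if Flox control replicate 3 was left out. Adipocyte markers were above 0 in 5 of 12 (median -0.05). Lep, the hormone leptin, had the smallest p of the adipocyte list, at 41.1, 166 and 101 CPM in Celf1 AKO, against 142, 568 and 298 CPM in Flox control (log2 fold change -1.71, SE 0.60, edgeR adjusted p = 0.324). Its groups overlapped, with Celf1 AKO replicate 2 above Flox control replicate 1. Of the remaining lists, B and T cell markers were above 0 in 3 of 4 tested (median 0.08, or 0.32 without Flox control replicate 3), epithelial markers in 3 of 3 (median 1.47) and mesothelial markers in 1 of 2 (median 0.74, or 0.43 without Celf1 AKO replicate 3), none of these at more than 13.6 CPM in sum in any library. Epithelial markers summed to 13.6 CPM in Celf1 AKO replicate 1 but to 3.13 and 3.26 CPM in replicates 2 and 3. Flox control held 1.01 to 3.91 CPM, so their high median rested on Celf1 AKO replicate 1. Over all 11 lists of other cell types and proliferation edgeR called 0 genes. At an unadjusted p under 0.05 it gave 18 higher, 8 of them Schwann cell markers, and 1 lower, Lep. Of all tested genes, 6.75% were higher and 6.17% lower at that p.

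**Figure D4:**
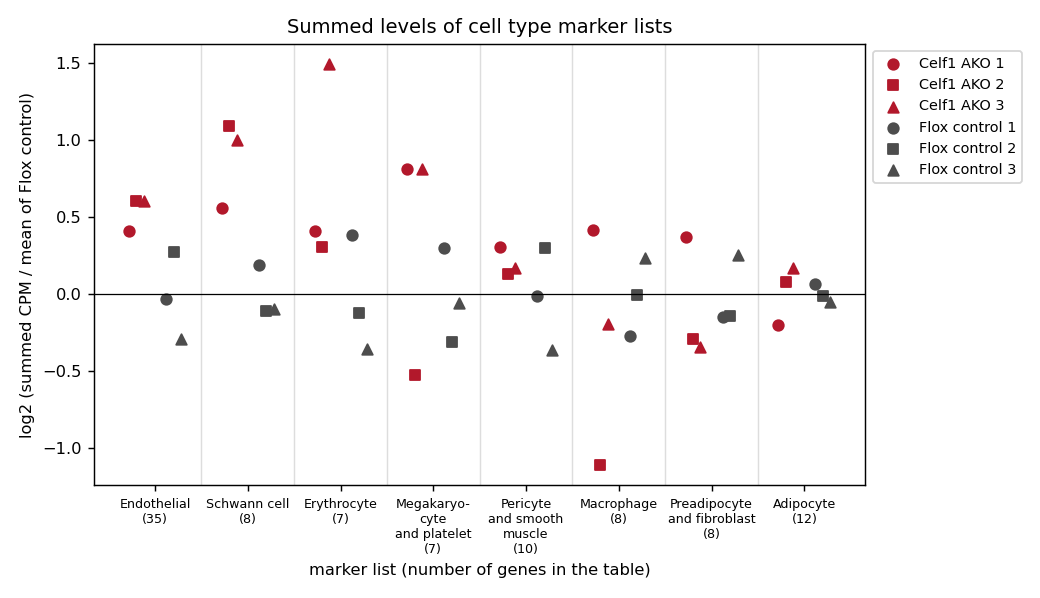
Summed CPM of 8 cell type marker lists in each library, as log2 of the ratio to the Flox control mean, for 3 Celf1 AKO libraries (red, left) and 3 Flox control libraries (grey, right), with the number of genes of each list in brackets. The endothelial and Schwann cell sums are higher in every Celf1 AKO library than in every Flox control library, the erythrocyte sum stands out in Celf1 AKO 3, and the other lists overlap between the genotypes.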

How the data were processed

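RNA was sequenced from 6 libraries of mouse inguinal white fat, 3 per genotype, from total RNA with mRNA isolation and a circularization step, per the labels' protocols. The authors deposited a table of raw read counts, in whole numbers by Ensembl gene ID, and one of FPKM values for the same genes. Per the submitters' processing notes, HISAT2, RSEM 1.3.1 and the builds GRCm38 and mm10 were used. The sources used here name neither the annotation nor the strand setting. Gene names came from GENCODE M21 (GRCm38). The labels do not say that each library was a separate mouse, so p-values measure the spread between libraries. No 2 libraries agreed within sampling noise (chi-square per degree of freedom at least 48.4 for every pair).

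The test was edgeR 4.0.16 (quasi-likelihood, TMM, default filter, robust) in R 4.3.3 on the 6 libraries, fitted for genotype alone, adjusted by Benjamini-Hochberg over 16366 genes and called at 0.05. CPM are TMM-scaled, errors of CPM and FPKM are SDs, and the SE of a log2 fold change is the fold change over the root of F. Alternatives were RLE scaling, no filter, DESeq2 1.42.0, limma-voom and limma 3.58.1 on log2(FPKM + 1) or log2(FPKM + 0.1), a replicate block and leaving out each library. The members and lists were chosen with earlier results of these data known. Every member is named, and values per library are given for the 12 of smallest p and for Pecam1, Cdh5, Kdr, Tek, Plvap, Gpihbp1, Nos3, Vwf, Lyve1 and Prox1 whatever their p. Up to 3 genes of smallest p are named per related list, besides Gja5, Aplnr, Fabp4 and Lpl, and up to 2 genes per cell type list. The comparison of single genes with the mean of the 35 was added after values were seen.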

Additional observations from a re-analysis of the deposited data

How the results depend on the processing

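Over 14 alternatives the median log2 fold change of the 35 endothelial genes was 0.40 to 0.70, with 29 to 33 genes above 0 (Prox1 and Tal1 did not pass the FPKM filter). DESeq2 called 8 members higher, and a replicate block or leaving out Celf1 AKO replicate 3 called 1 (Cldn5), against 0 in the edgeR fit. Over all genes, edgeR called 2 higher and 0 lower, DESeq2 called 340 and 154, the replicate block 9 and 3, limma-voom and limma on log2(FPKM + 1) or log2(FPKM + 0.1) called 0 higher, and limma on log2(FPKM + 1) without a filter 1. Leaving out 1 library at a time gave 0 to 237 higher and 0 to 290 lower, with the highest counts without Celf1 AKO replicate 3. In the other lists 15 genes were called by DESeq2, 6 without that replicate and 1 with the block (Lep). The cause was not tested. The Celf1 log2 fold change passed at -1.21 with the block, at -1.19 by DESeq2 and at -1.32 without Celf1 AKO replicate 3 (range -1.32 to -1.12 leaving out 1 library). The mean log2 fold change of transcription factors minus that of all members was 0.09, and -0.0537 by log2(FPKM + 1) without a filter. With the filter, which left 4 of the 6 transcription factors, log2(FPKM + 1) gave 0.0926. The cause of this change of sign was not tested.

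Of 486 member values 11 turned sign, in 5 genes. Leaving out 1 library at a time gave Clec14a log2 fold changes of -0.535 to 0.0802 (highest without Celf1 AKO replicate 1), Lyve1 -0.556 to 0.225 (above 0 without Celf1 AKO replicate 2 and, at 0.0214, without Flox control 3), Podxl -0.0919 to 0.575 and Sox18 -0.0511 to 0.535 (both below 0 without Celf1 AKO replicate 3). Nos3 ranged from -0.238 to 0.174, above 0 in 4 of those fits, and was at 0.0018 with RLE scaling and by DESeq2. Replicate numbers were taken as names only: deviations from the group means correlated at 0.07, -0.01 and 0.27 for numbers 1, 2 and 3, and Celf1 AKO replicates 1, 2 and 3 correlated best with Flox control replicates 1, 1 and 3.

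With 3 libraries a group, an adjusted p above 0.05 does not show that a gene was alike in the genotypes. Depth limits Prox1, with 14 counts in 1 library. Reads of Egfl7 and Agpat2 in shared exons cannot be told apart without the strand setting.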
